A study of Mus musculus with 26 samples.

Results

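Microglia are the resident macrophages of the retina and optic nerve, and 30 genes that mark them or macrophages more widely were described here across astrocyte immunoprecipitates of 3 regions. The genes were chosen by name, as the rows of the deposited table of 54532 genes whose identifier maps to one of 30 symbols (P2ry12, P2ry13, P2ry6, Gpr34, Cx3cr1, Csf1r, Tmem119, Fcrls, Siglech, Olfml3, Sall1, Irf8, Spi1, Tyrobp, Fcer1g, Trem2, Fcgr3, C1qa, C1qb, C1qc, Ctss, Cd68, Laptm5, Lyz2, Ptprc, Itgam, Cd53, Ly86, Aif1 and Mrc1). All 30 symbols were found, and all 30 passed a filter on low counts over the 26 libraries.

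The study set out to profile astrocytes of the mouse retina. Astrocyte RNA was captured by immunoprecipitation (IP) from the retina (6 libraries), the optic nerve head (ONH, 7 libraries) and the myelinated optic nerve proper (ONP, 7 libraries), and whole retinal RNA was kept as input (6 libraries). All animals were untreated and labelled day 0. The mouse line, the tag that the antibody binds, the age and the sex are not given in the sources used here, and neither is whether libraries came from separate animals, so the p-values measure the spread between libraries. No optic nerve input library was analysed here, so levels in the nerve IP cannot be set against the tissue they came from. Replicates 1 to 6 of ONH and of ONP belong to sequencing batch 1, while replicate 7 of each and all 12 retinal libraries belong to batch 2.

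Microglia are long-lived cells that enter the nervous system in the embryo and depend on signalling through the receptor Csf1r. They survey tissue with motile processes, guided in part by purinergic receptors such as P2ry12, and clear debris and synapses through complement and phagocytic receptors. Many of those receptors signal through small adaptor proteins, Tyrobp and Fcer1g, that carry an immunoreceptor tyrosine-based activation motif (ITAM). Most of these genes are known as markers that astrocytes lack or hold at low levels.

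The transcription factor PU.1, encoded by the member Spi1, is required for microglia and macrophages to form and binds purine-rich DNA with a GGAA core. RefSeq promoters (assembly GRCm38.p6) were available for 23 of the 30 genes, and the letters GAGGAA, a common form of its site, were searched on both strands (TTCCTC on the opposite strand). The 250 bases upstream of the start held a match in 14 of the 23 genes (60.9%), against 25.9% of all 27025 genes in the table. Within the last 50 bases before the start the match was found in 9 of 23 (39.1%), against 6.01% of all genes. A match is a description of letters and not evidence of binding. The 100 bases upstream of the start are shown for 4 genes with a match near it. Olfml3 and Sall1, which hold no match, are also shown and differ from the other members in several results given further on. P2ry12, Cx3cr1, Siglech, Fcer1g, Ly86, Irf8 and Lyz2 held no match in the 250 bases either. Any link between a match and the level of a gene was not tested. The regions are chr4:136886201-136886300 (C1qb, minus strand), chr17:48346301-48346400 (Trem2, plus strand), chr3:106790150-106790249 (Cd53, minus strand), chr3:59210883-59210982 (P2ry13, minus strand), chr3:103738002-103738101 (Olfml3, minus strand) and chr8:89044163-89044262 (Sall1, minus strand). Capitals mark the searched letters, each line runs 5′ to 3′ and the last base is next to the start.
C1qb: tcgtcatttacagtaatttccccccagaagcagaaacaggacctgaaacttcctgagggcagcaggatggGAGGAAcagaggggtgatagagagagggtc
Trem2: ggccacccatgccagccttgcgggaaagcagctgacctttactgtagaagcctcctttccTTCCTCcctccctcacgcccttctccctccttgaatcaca
Cd53: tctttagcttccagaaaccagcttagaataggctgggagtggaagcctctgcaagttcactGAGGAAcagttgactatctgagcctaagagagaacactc
P2ry13: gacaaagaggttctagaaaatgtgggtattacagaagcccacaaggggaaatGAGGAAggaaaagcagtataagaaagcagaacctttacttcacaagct
Olfml3: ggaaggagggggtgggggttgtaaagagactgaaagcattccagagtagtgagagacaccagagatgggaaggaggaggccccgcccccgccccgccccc
Sall1: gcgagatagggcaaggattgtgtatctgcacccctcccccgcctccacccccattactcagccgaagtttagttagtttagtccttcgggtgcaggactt
In C1qb the match begins 30 bases upstream of the start, in Cd53 39 bases and in P2ry13 48 bases, all on the gene's own strand, and in Trem2 40 bases upstream on the opposite strand.

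Libraries held 11164619 to 27431026 counts. Levels are given as CPM, the usual depth-normalised count, taken over the TMM-scaled library size. Gfap, the intermediate filament that marks astrocytes, was between 361 and 3758 CPM in retina IP, 46.6 to 729.9 CPM in retina input and 2755 to 26124 CPM in the nerve IP, and retina IP replicate 1 (361 CPM) lay within the range of the input. Of 9 astrocyte genes, 8 were higher in retina IP than in input at an unadjusted p under 0.05 and none was called by edgeR after adjustment. Mbp, a major myelin protein made by oligodendrocytes, reached 14512 to 56500.3 CPM in the nerve IP and at most 63.2 CPM in retina IP. Rod genes stood out in ONH replicate 7, where the median ratio of 8 such genes to the median of the other ONH libraries was 115, and it was 19.1 in ONP replicate 7 against the other ONP libraries. Astrocyte genes were low in these 2 libraries, which alone link the nerve to the batch of the retina, with median ratios of 0.396 and 0.585.

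The summed level of the 30 genes was lowest in retina IP, at 142, 245 and 280.5 CPM (lowest, median and highest of 6 libraries). It was 253, 408 and 2173 CPM in retina input, 689, 3669 and 4665 CPM in ONH, and 653, 4893 and 5737 CPM in ONP. Every nerve library was above every retina IP library in this sum. In tissue extracts, fewer cells of a type and less RNA per cell cannot be told apart.

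**Figure D1:**
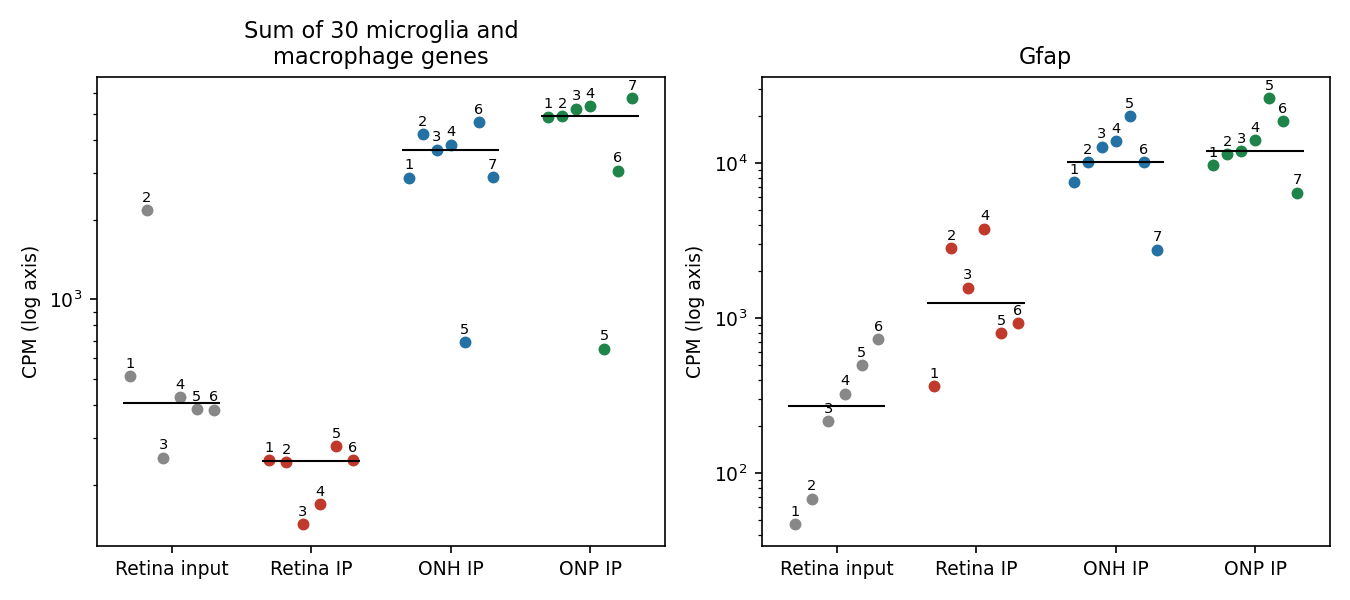
Summed CPM of the 30 microglia and macrophage genes (left) and CPM of Gfap (right) in each of 26 libraries, on log axes, with points labelled by replicate number and a bar at the group median. ONH and ONP replicate 5 are at 689 and 653 CPM, below all other nerve libraries, while the same libraries have the highest Gfap of their groups, and retina input replicate 2 is at 2173 CPM.

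Some libraries stood apart from their group before any comparison. Replicate 5 was the lowest of 7 for 27 of the 30 genes in ONH (all but Sall1, Olfml3 and Mrc1) and for 29 of the 30 in ONP (all but Sall1). The median ratio of replicate 5 to the median of the other libraries of its group was 0.166 in ONH and 0.14 in ONP. In the same libraries Gfap was the highest of each group, at 20039.7 and 26124 CPM, and the median ratio of 9 astrocyte genes was 1.6 and 2.23. Median ratios were low there as well for 6 endothelial genes (0.128 and 0.233) and 5 red blood cell genes (0.171 and 0.244). Those of 14 other microglia genes (0.243 and 0.28) and 6 MHC class II genes (0.212 and 0.265) were low too. For 8 oligodendrocyte genes they were 0.689 and 0.394, for 3 Muller glia genes 1.01 and 1.78, and for 8 rod genes 0.0834 and 2.91. For 12 lymphocyte genes the ratios were 0.765 and 0.923, and for 9 monocyte and neutrophil genes 0.89 and 1. Most of these genes had hardly any counts, and 0.5 CPM was added before each ratio, which pulls it towards 1. The ratios of these lists therefore cannot show whether such genes were low in replicate 5. Whether replicate 5 of ONH and of ONP share an animal or a preparation is not given in the sources used here.

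**Figure D2:**
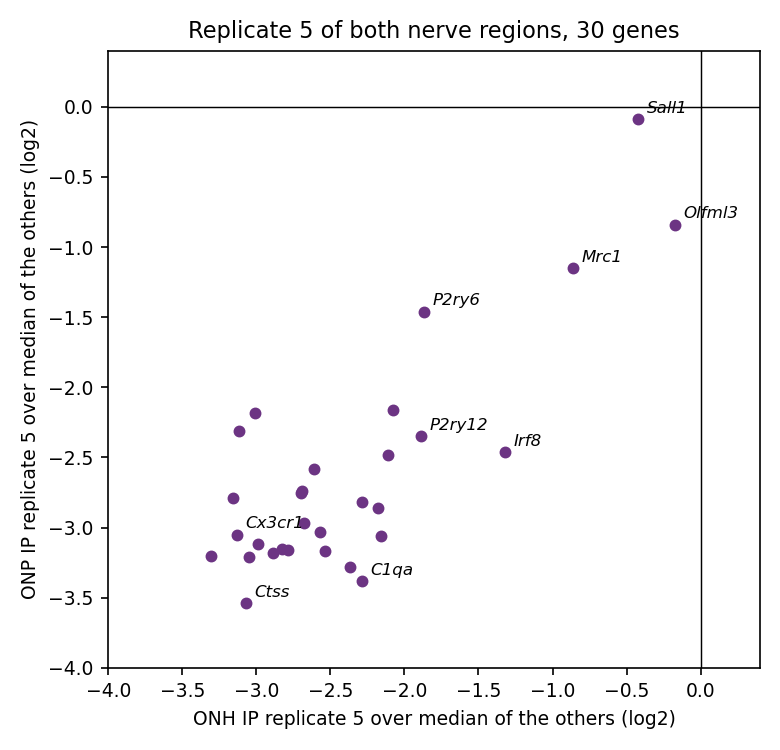
Log2 ratio of (CPM + 0.5) in replicate 5 to the median of the other libraries of the same group, for ONH (x axis) and ONP (y axis), 1 point per gene (30 genes). The median gene is at -2.59 in ONH and -2.84 in ONP, while Sall1 is at -0.42 and -0.09 and Olfml3 at -0.17 and -0.84.

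In the retina, input replicate 2 was the highest of 6 for 20 of the 30 genes, while input replicate 3 was the lowest for 14 and replicate 1 for 9. The summed level was 515 CPM in replicate 1 and 253 CPM in replicate 3. Mitochondrially encoded genes took 15.2% of the counts in input replicate 2 and 8.16% in replicate 1, against 2.79% to 4.01% in the other 4 input libraries. Red blood cell genes moved in opposite directions in these libraries, with a median ratio of 11.5 to input replicates 3 to 6 in replicate 2 and of 0.327 in replicate 1.

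**Figure D3:**
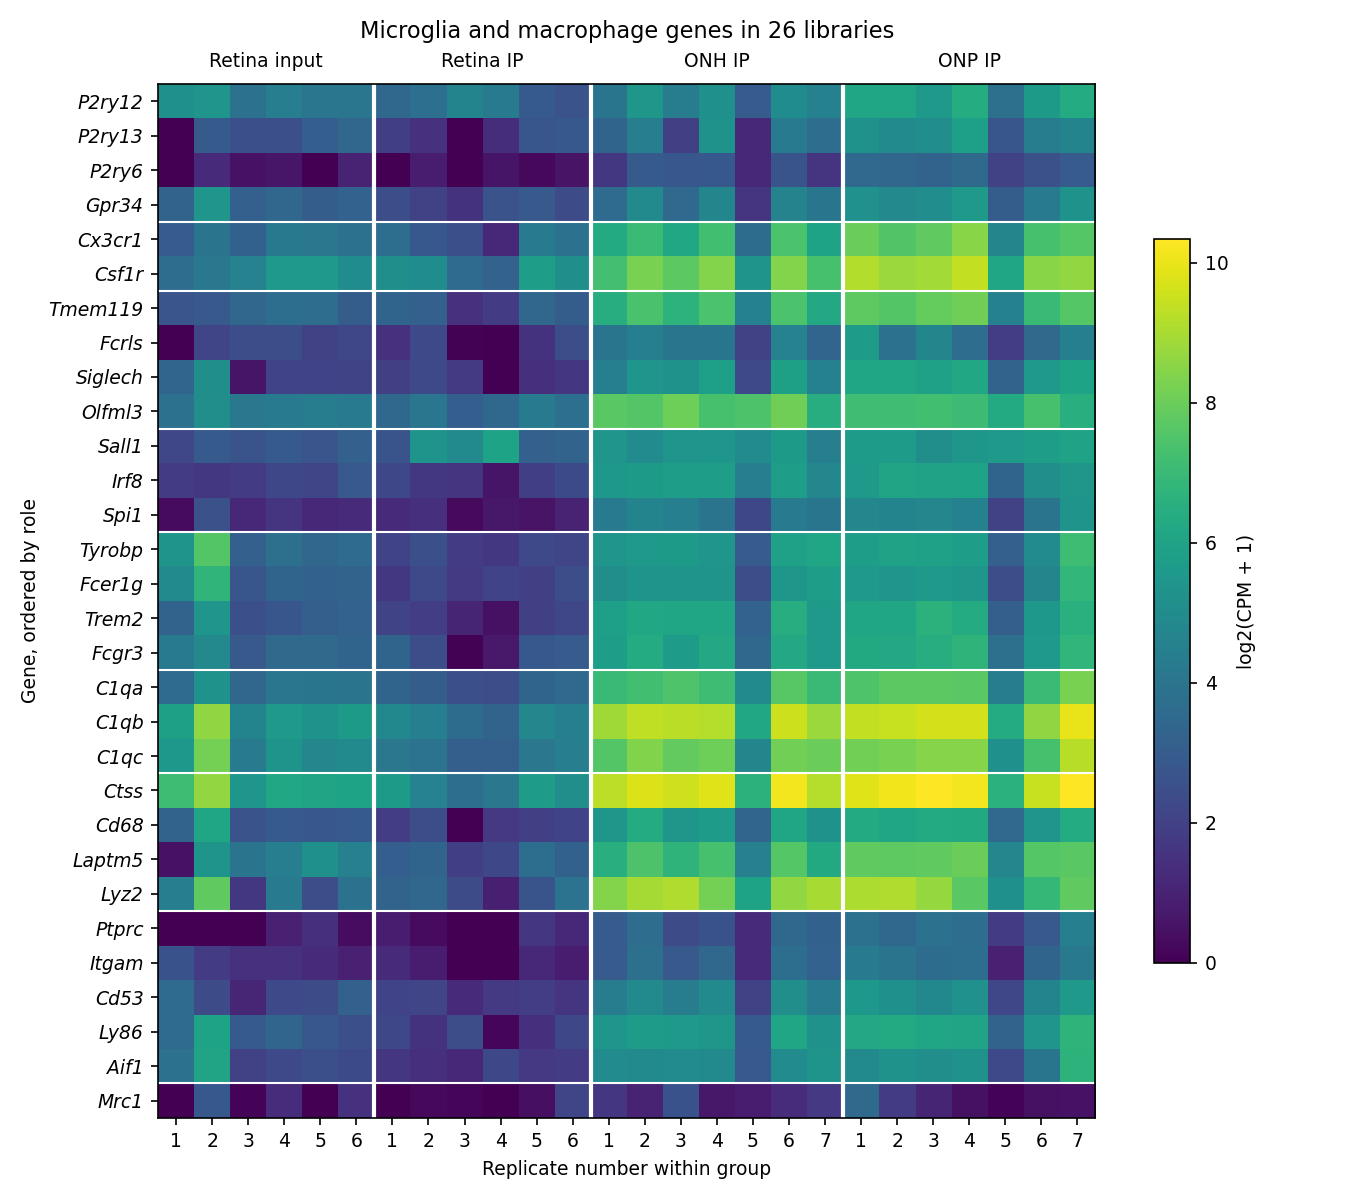
Level of each of the 30 genes, as log2(CPM + 1), in 26 libraries, with genes in rows ordered by role and libraries in columns by group and replicate number. The nerve columns are brighter than the retinal ones for most genes, with replicate 5 of both nerve groups and retina input replicate 2 as visible exceptions, and Mrc1 is dark throughout.

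The comparison of retina IP with ONH IP asked how retinal astrocyte RNA differs from that of the nerve head. Of the 30 genes, 25 were lower in retina IP and none was higher, at a Benjamini-Hochberg adjusted p under 0.05 in edgeR's quasi-likelihood test with batch as a term. Over all 16355 genes tested, 21.1% were called lower and 12.7% higher. The median log2 fold change was -3.83 for the 30 genes and -0.13 for all genes tested. The 5 genes not called were P2ry12, P2ry13, Fcrls, Sall1 and Mrc1, which also had negative estimates. Since fold changes come from a fit with a batch term, they are not plain ratios of the group means.

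Against ONP IP, 28 of the 30 genes were lower in retina IP and none was higher, where 19.9% of all genes tested were called lower and 12.9% higher. The median log2 fold change was -4.48 for the 30 genes and -0.10 for all genes. Sall1 and Mrc1 were not called. The retina IP libraries are shared by both comparisons, so the 2 sets of estimates are not independent.

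**Figure D4:**
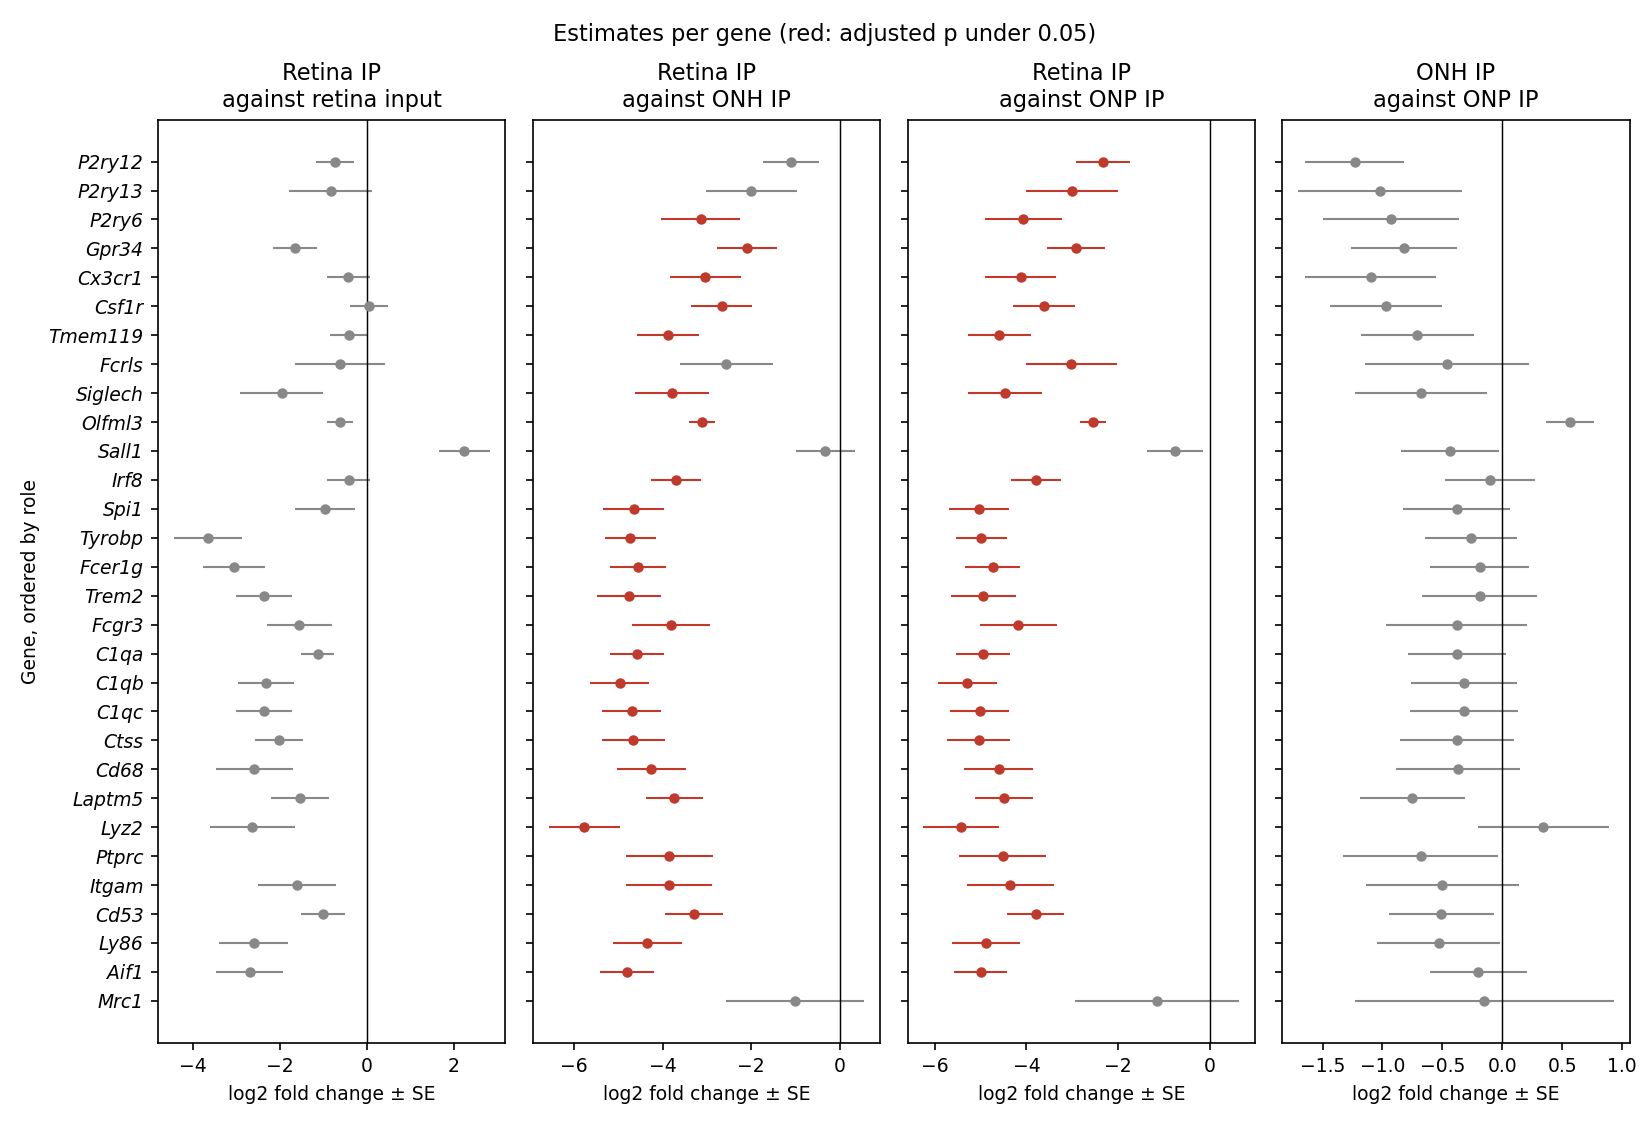
Log2 fold change of each of the 30 genes with its standard error (points and bars) in 4 comparisons, from edgeR fits, with red for an adjusted p under 0.05 and gray for the others. In the middle panels most genes are red and between -2 and -6, while no gene is red in the outer panels.

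Counted by libraries that do not overlap, all retina IP libraries lay below all ONH libraries in 18 of the 30 genes (14.1% of all genes tested) and below all ONP libraries in 24 of 30 (16.5%). Without replicate 5 of each nerve group these counts were 26 (15.8% of all genes tested) and 28 (18.7%). Replicate 5 was chosen for its low values in these same genes, and leaving a library out cannot lower such counts. Within batch 2, where replicate 7 is the only nerve library of each region, it was above all 6 retina IP libraries in 27 of the 30 genes for ONH (all but P2ry12, Sall1 and Mrc1) and in 28 for ONP (all but Sall1 and Mrc1). With 1 library against 6 this is a loose measure, met by 32.8% and 35.7% of all genes tested. Fits on batch 2 alone called 15 of the 30 genes lower against ONH (3.42% of all genes) and 21 against ONP (4.87%). Fits on only the compared groups called 18 (10.4%) and 26 (15.1%). Leaving out ONP replicate 7, 1 of the 2 nerve libraries that share a batch with the retina, left 23 of the 30 genes lower against ONH (13.9% of all genes) and 20 against ONP (9.76%). Leaving out ONH replicate 7 left 24 (15.3%) and 27 (17.3%). The part of the rod and astrocyte genes of replicate 7 in these results was not tested.

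Among the purinergic and related receptors, P2ry12, the receptor for ADP that directs microglial processes, lies on chromosome 3 (mm10, 59216272 to 59262871) and had the estimate nearest 0 of these receptors against ONH. Its level in retina IP was 5.24, 11.6 and 24.7 CPM (lowest, median and highest), against 6.88, 22.3 and 44 CPM in ONH and 13.1, 68.6 and 83 CPM in ONP. The retina IP values overlapped both nerve groups, and in ONP only replicate 5 fell within the retinal range. The log2 fold change was -1.10 ± 0.638 (SE) against ONH (edgeR adjusted p = 0.19) and -2.33 ± 0.589 against ONP (edgeR adjusted p = 0.00491).

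P2ry13, a second ADP receptor that neighbours P2ry12, had 0 to 6.15 CPM in retina IP, 1.26 to 38.5 CPM in ONH and 5.76 to 55.4 CPM in ONP. It was lower against ONP (log2 fold change -3.00, edgeR adjusted p = 0.0271) and not called against ONH (-1.99, adjusted p = 0.141). P2ry6, the UDP receptor linked to phagocytosis, was at or below 0.732 CPM in every retina IP library and at 0 in 2 of them, and was called lower against both nerve regions (-3.14 and -4.07). Gpr34, a receptor for a lysophospholipid, had 1.86 to 6.33 CPM in retina IP and was called lower against both (-2.09 and -2.92). Without ONH or ONP replicate 7, Gpr34 was no longer called against ONH (adjusted p = 0.0653 and 0.122).

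Cx3cr1, the fractalkine receptor, was at 1.19, 9.18 and 17.6 CPM in retina IP, 11.5, 78.9 and 169 CPM in ONH, and 24.8, 192 and 363 CPM in ONP. Retina IP and ONH overlapped through replicate 5 of ONH (11.5 CPM), and retina IP and ONP did not overlap. The log2 fold change was -3.03 ± 0.808 against ONH (edgeR adjusted p = 0.00703) and -4.13 ± 0.782 against ONP (adjusted p = 0.000461). Csf1r, the receptor for the survival factors CSF1 and IL-34, was at 8.51, 32.8 and 53 CPM in retina IP, 39.9, 214 and 339 CPM in ONH, and 68, 445 and 672 CPM in ONP. Its retinal values overlapped ONH only through replicate 5 of ONH, and its log2 fold changes were -2.66 ± 0.69 (edgeR adjusted p = 0.00589) and -3.62 ± 0.669 (adjusted p = 0.000367). Part of the exons of Csf1r (873 of 5774 bases) overlap those of Hmgxb3 on the opposite strand, and the sources used here do not say that counting used strand.

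Of the other genes of homeostatic microglia, Tmem119, a surface protein used to tell microglia from other macrophages, was at 1.81, 7.66 and 9.56 CPM in retina IP. It was at 22.4, 103 and 167 CPM in ONH and at 22.4, 194 and 276 CPM in ONP, with no overlap between retina and nerve. Tmem119 gave a log2 fold change of -3.88 ± 0.701 against ONH (edgeR adjusted p = 0.000337) and -4.59 ± 0.678 against ONP (adjusted p = 3.66e-05). Siglech, a sialic acid-binding lectin, was called lower against both (-3.78 and -4.47), and the Fc receptor-like gene Fcrls was called against ONP (-3.02, adjusted p = 0.0249) but not against ONH (-2.56, adjusted p = 0.0647).

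Olfml3, a secreted olfactomedin-domain protein, was lower in retina IP with the smallest standard errors of the 30 genes, at -3.11 ± 0.298 against ONH (edgeR adjusted p = 2.34e-07) and -2.55 ± 0.288 against ONP (adjusted p = 1.57e-06). Its levels were 7.43 to 18 CPM in retina IP, 85.4 to 275 CPM in ONH and 79.2 to 158 CPM in ONP. Unlike 27 of the other genes, it was not the lowest in ONH replicate 5 (175 CPM).

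Of the transcription factors, Spi1 was at 0.195 to 1.67 CPM in retina IP, 3.72 to 24.7 CPM in ONH and 3.1 to 39.8 CPM in ONP, and was called lower against both (-4.65 and -5.03). Irf8, an interferon regulatory factor that acts with PU.1, was called lower against both (-3.70 and -3.80), with 0.498 to 3.95 CPM in retina IP and at least 9.16 CPM in every nerve library. Sall1, a zinc-finger factor that sets microglia apart from other macrophages, followed another pattern. It was at 5.41, 39.3, 28.6, 63.6, 7.95 and 8.73 CPM in retina IP replicates 1 to 6, at 20.4 to 48.4 CPM in ONH and at 33.4 to 60.5 CPM in ONP. Retina IP replicates 2 and 4 reached the range of both nerve groups, and replicate 3 reached that of ONH only. Replicates 1, 5 and 6 lay below every nerve library. Replicates 2, 3 and 4 also had the highest Gfap of retina IP, at 2805, 1566 and 3758 CPM against 361 to 923 CPM in the others. The log2 fold change of Sall1 was -0.32 ± 0.668 against ONH (edgeR adjusted p = 0.746) and -0.76 ± 0.608 against ONP (adjusted p = 0.365), and its sign against ONH turned in 3 alternative fits.

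The ITAM adaptors and the receptors that use them were all called lower in both comparisons. Tyrobp (DAP12), the adaptor of Trem2, was at 2.24, 3.37 and 4.7 CPM in retina IP, at 7.02, 47.1 and 66.6 CPM in ONH, and at 8.08, 53.6 and 139.7 CPM in ONP. No nerve library overlapped the retinal ones, and the log2 fold change was -4.73 ± 0.579 against ONH (edgeR adjusted p = 5.73e-06) and -4.99 ± 0.559 against ONP (adjusted p = 1.39e-06). Trem2, a lipid-sensing phagocytic receptor whose promoter is shown above, gave -4.76 and -4.94. Fcer1g, the common gamma chain of Fc receptors, gave -4.55 and -4.74. Fcgr3, a low-affinity receptor for IgG with close paralogs, gave -3.81 and -4.18.

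The 3 chains of C1q, which starts the classical complement pathway, were lower in retina IP in both comparisons without overlap of libraries. They lie side by side on chromosome 4 (mm10), C1qb from 136880129 to 136886187, C1qc from 136889804 to 136893065 and C1qa from 136895917 to 136898803. C1qa was at 4.43, 8.18 and 10.7 CPM in retina IP, 28.7, 137 and 199 CPM in ONH, and 19.4, 204 and 309 CPM in ONP. Its log2 fold change was -4.57 ± 0.612 against ONH (edgeR adjusted p = 1.65e-05) and -4.94 ± 0.588 against ONP (adjusted p = 2.92e-06). C1qb was at 8.86, 21 and 27.4 CPM in retina IP, 71.4, 578 and 742 CPM in ONH, and 81.7, 713 and 1016 CPM in ONP, and was among the largest differences of the 30 genes in both comparisons. Its log2 fold change was -4.97 ± 0.668 (edgeR adjusted p = 1.68e-05) and -5.29 ± 0.643 (adjusted p = 3.88e-06), and C1qc gave -4.70 and -5.02.

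All 4 lysosomal genes were called lower in both comparisons. Ctss, a cysteine protease of antigen-presenting cells, was at 12.3, 28.1 and 49.9 CPM in retina IP, 97.9, 775 and 1134 CPM in ONH, and 95.8, 1094 and 1293 CPM in ONP. The groups did not overlap, and replicate 5 of each nerve group was the nearest to the retinal libraries. Ctss gave a log2 fold change of -4.66 ± 0.712 against ONH (edgeR adjusted p = 6.59e-05) and -5.04 ± 0.689 against ONP (adjusted p = 1.56e-05).

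Lyz2, lysozyme M of myeloid cells, showed the largest estimate of the 30 in both comparisons. It was at 0.896, 7.04 and 14.2 CPM in retina IP, 62.6, 399 and 545 CPM in ONH, and 35.6, 224 and 543 CPM in ONP, without overlap. Its log2 fold change was -5.77 ± 0.803 against ONH (edgeR adjusted p = 2.49e-05) and -5.42 ± 0.829 against ONP (adjusted p = 5.31e-05). Lyz2 has a near-identical neighbour, Lyz1, so the split of reads between them is uncertain. Cd68, a lysosomal glycoprotein, gave -4.25 and -4.61, and Laptm5, a lysosomal membrane protein of blood cells, gave -3.73 and -4.49.

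The leukocyte surface and cytoskeletal genes Ptprc (CD45), Itgam (CD11b), Cd53, Ly86 and Aif1 (IBA1) were all called lower in both comparisons. Aif1, the usual stain for microglia, was at 1.22, 2.19 and 3.68 CPM in retina IP, 6.46, 30.5 and 40.3 CPM in ONH, and 3.81, 33.8 and 101 CPM in ONP. The groups did not overlap, and the log2 fold change of Aif1 was -4.80 ± 0.614 against ONH (edgeR adjusted p = 9.53e-06) and -5.00 ± 0.582 against ONP (adjusted p = 2.26e-06). Ptprc and Itgam were low everywhere, with at most 2.13 and 1.42 CPM in retina IP and at most 21.3 and 17.7 CPM in the nerve. Of the exon bases of Itgam, 3450 of 5024 are shared with the model Gm49368 on the same strand, so its count is uncertain.

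Mrc1, the mannose receptor CD206 of macrophages at the borders of the brain, was close to 0 in most libraries. It was at 0, 0.136 and 3.49 CPM in retina IP, 0.574, 1.48 and 5.05 CPM in ONH, and 0.0748, 0.432 and 10.9 CPM in ONP, with overlap throughout. Estimated log2 fold changes were -1.0 ± 1.56 against ONH (edgeR adjusted p = 0.651) and -1.15 ± 1.79 against ONP (adjusted p = 0.665), so a difference was not detectable at these counts.

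Compared per kb of longest transcript, the highest mean levels in ONP were those of Ctss (689 CPM per kb), C1qb (591), C1qc (247), Lyz2 (225), C1qa (174) and Tyrobp (103). In retina IP the order began with Ctss (22.5 CPM per kb), C1qb (17.9), C1qc (11.5), C1qa (7.27) and Csf1r (6.12), with Tyrobp at 5.96 and Lyz2 at 5.44 CPM per kb. The spread of neighbours in this order overlapped in each group, and the order itself was not tested.

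Other genes of microglia and of the pathways that the 30 belong to were read from lists, with values in parentheses given as log2 fold changes of retina IP over ONH and over ONP, all called by edgeR unless stated. Genes are named only where a group mean reached 10 CPM, and some genes below that level had larger estimates. Of 14 other microglia genes, 8 were lower in retina IP against ONH and 9 against ONP, and none was higher. Among those reaching 10 CPM were Selplg, a ligand of selectins (log2 fold changes -3.98 and -4.86), and Bin2 (-4.11 and -4.68). Crybb1 was called against ONH (-4.15) and Csf3r, the receptor for granulocyte colony-stimulating factor, was among the largest against ONP (-4.79). All 6 MHC class II genes were lower in both, among them Cd74, the invariant chain, with mean levels of 1.99 CPM in retina IP, 118 CPM in ONH and 96.1 CPM in ONP (-5.55 and -5.21). H2-Aa (-5.22 and -4.51) and H2-Eb1 (-3.63 and -2.97), both class II chains, were lower as well.

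Of 12 genes of ITAM and Fc receptor signalling, 6 were lower against ONH and 7 against ONP, and none was higher. They included the inhibitory Fc receptor Fcgr2b (-4.81 and -5.48) and the phosphatase Ptpn6 (-3.83 and -4.23), and the high-affinity receptor Fcgr1 was lower as well (-4.21 and -4.78), at a mean of 8.33 CPM in ONH and 12.6 CPM in ONP. Downstream of C1q, 8 of 10 complement genes were lower in each comparison, among them C3, the central component (-4.15 and -5.23) and Serping1, the C1 inhibitor (-3.23 and -3.32). Of 15 genes of disease-associated microglia, 6 were lower in each comparison and none was higher. In each comparison 5 of the 15 had positive estimates, the largest for Spp1 (2.57 and 2.77, not called). Among those reaching 10 CPM, the largest was Lgals3, a galactose-binding lectin, with means of 3.44 CPM in retina IP, 927 CPM in ONH and 614 CPM in ONP (-8.33 and -7.72), followed by Gpnmb (-5.24 and -5.85) and Clec7a, a receptor for beta-glucan (-5.00 and -5.15).

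Ligands of microglial receptors were mixed. Of 6 tested ligands, 3 were higher in retina IP against ONH, namely Cx3cl1, the ligand of Cx3cr1 (3.02), Cd200 (1.76) and Il34, a ligand of Csf1r (1.71). Against ONP, Cx3cl1 (2.65) and Il34 (2.20) were higher and Csf1, the other ligand of Csf1r, was lower (-1.38). Cx3cl1 averaged 334 CPM in retina IP, 38.7 CPM in ONH and 49.1 CPM in ONP. Ganglion cell genes, which belong to neurons of the retina, were higher in retina IP in the same comparisons (7 of 8 against ONH and 8 of 8 against ONP), and their part in the ligand values was not tested.

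Markers of monocytes, neutrophils and lymphocytes were scarce. The summed level of 9 monocyte and neutrophil genes was at most 7.79 CPM in any nerve library and at most 0.977 CPM in retina IP, where the chemokine receptor Ccr2 was at 0 in all 6 libraries, and only Ccr2 of the 9 had enough counts to be tested. The sum of 12 lymphocyte genes was 4.49 to 13.6 CPM in the nerve libraries and 1.44 to 4.18 CPM in retina IP. Border macrophage genes summed to 4.7 to 49.4 CPM in ONH, 2.5 to 56.6 CPM in ONP and at most 10.9 CPM in retina IP. Of these 10 genes, 3 were lower in retina IP against ONH and 1 against ONP, none with a mean of 10 CPM or more in either group.

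Some astrocyte genes differed between the regions in the same direction as the 30 genes. Aqp4, the water channel of astrocyte endfeet, was lower in retina IP against ONH and ONP (-1.85 and -2.93), as was the connexin gene Gja1 (-2.74 and -2.49), with 3 of 9 and 4 of 9 astrocyte genes called lower. All 8 rod genes were lower against ONH and none was called against ONP, all 3 Muller glia genes were higher in both comparisons, and 4 of 6 endothelial genes were lower in both, while Kdr, a receptor for vascular endothelial growth factor, was higher against ONP (3.06). Of 5 red blood cell genes, 3 were lower against ONH and none against ONP, with summed levels of 16.2 to 323 CPM in ONH, 18.2 to 241 CPM in ONP and 12.5 to 83.6 CPM in retina IP. All 8 oligodendrocyte genes were lower in retina IP in both comparisons, with medians of -9.60 and -10.88. The part of these other cell types in the results for the 30 genes was not tested.

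The nerve regions were compared with each other in the same fit. None of the 30 genes was called higher or lower in ONH against ONP by edgeR, where 4.43% of the 16355 genes tested were called higher and 3.04% lower, 7.48% in all. Libraries of ONH and ONP overlapped in all 30 genes, where all ONH libraries lay below all ONP libraries in 0.807% of genes tested. At an unadjusted p under 0.05, 1 gene was lower (P2ry12) and 1 higher (Olfml3), where 1750 of the 16355 genes tested were lower and 2053 higher. DESeq2 called 1 gene, P2ry12, lower, where 891 of all 16355 genes were called lower and 1150 higher. Estimates were negative for 28 of the 30 genes with a median of -0.41, against 0.02 for all genes tested. With batch 1 alone and the replicate number as a block, edgeR called 8 of the 30 genes in either direction. In that fit 13.3% of all genes were called lower and 12.5% higher, and no label ties the replicate numbers of ONH and ONP.

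P2ry12 had 15.4, 44, 19.1, 35.3, 6.88, 31.3 and 22.3 CPM in ONH replicates 1 to 7 and 68.7, 68.6, 47.7, 83, 13.1, 48.5 and 80.9 CPM in ONP replicates 1 to 7. Each ONP library other than replicate 5 was above every ONH library. The log2 fold change was -1.23 ± 0.413 (edgeR adjusted p = 0.0743), and it passed the threshold without ONP replicate 5 (-1.40, adjusted p = 0.0268) and without replicate 5 of both groups (-1.26, adjusted p = 0.0422). Olfml3 had 85.4, 187 and 275 CPM in ONH and 79.2, 141 and 158 CPM in ONP. Its log2 fold change was 0.56 ± 0.2 (edgeR adjusted p = 0.0939), and in batch 1 alone it was 0.66 with an adjusted p of 0.0259.

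Other receptors did not pass the test, with negative estimates. Cx3cr1 gave -1.10 ± 0.547 (edgeR adjusted p = 0.233), Csf1r -0.97 ± 0.468 (adjusted p = 0.221) and Gpr34 -0.82 ± 0.442 (adjusted p = 0.274). Estimates nearer 0 were found for the C1q chains (-0.38 for C1qa, -0.32 for C1qb and -0.32 for C1qc), for Tyrobp (-0.26) and for Lyz2 (0.34).

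Retina IP was compared with retina input to ask which RNA the IP retained. None of the 27 genes that passed the filter was called by edgeR, and 0 of all 15181 genes tested were called, so the call rate of the background was 0%. Across all genes 1771 were higher and 1585 lower at an unadjusted p under 0.05, and the smallest adjusted p was 0.057. P2ry6, Ptprc and Mrc1 did not pass the filter. Of the 27 genes, 13 were lower and 1 (Sall1) was higher at an unadjusted p under 0.05, where 10.4% of all genes tested were lower. Other microglia genes did not share this, with a median estimate of 0.03 and 1 of 10 tested lower at that level. Red blood cell genes (median -2.54, 4 of 5 lower) and rod genes (median -1.33, 5 of 8 lower) had negative medians, and their part was not tested. DESeq2 called 7 of the 27 lower and 1 higher, against 7.27% and 6.38% of all genes, and a fit on all 26 libraries called 12 lower and 1 higher, against 8.46% and 8.26%.

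Estimates were negative for 25 of the 27 genes with a median of -1.55, against 0.02 for all genes tested. Tyrobp had 39.3, 189, 8, 13.2, 9.56 and 11.1 CPM in input replicates 1 to 6 and 3.24, 4.7, 2.59, 2.24, 3.92 and 3.49 CPM in IP replicates 1 to 6. Every IP library was below every input library, and the log2 fold change was -3.65 ± 0.785 (edgeR adjusted p = 0.057). Without IP replicate 1 it was called, at -3.63 with an adjusted p of 0.0475, and without input replicates 1 and 2 it was the 1 gene of the 30 called, at -1.58 with an adjusted p of 0.0418, where 0.302% of all genes were called lower and 0.0063% higher. Libraries also lay apart for Trem2, Gpr34, Cd68, Fcer1g and Ly86, giving 6 genes in all, where 2.9% of all genes tested lay apart in that direction.

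In other members the input and IP libraries overlapped. Csf1r was at 12.1 to 45.7 CPM in input and 8.51 to 53 CPM in IP, with a log2 fold change of 0.05 ± 0.447 (edgeR adjusted p = 0.968). Its sign turned in several alternative fits. Cx3cr1 gave -0.43 ± 0.495 (adjusted p = 0.679), with 7.02 to 16.9 CPM in input, and Tmem119 gave -0.41 ± 0.435 (adjusted p = 0.649), with 5.61 to 12.4 CPM in input. P2ry12 was at 13.5, 18.2 and 41.2 CPM in input and gave -0.74 ± 0.436 (adjusted p = 0.346). C1qa was at 9.78, 15.1 and 37.8 CPM in input (-1.13 ± 0.379, adjusted p = 0.102), Ctss at 42.6, 68.7 and 400.2 CPM (-2.02 ± 0.553, adjusted p = 0.0693) and Lyz2 at 2.21, 15.7 and 221 CPM (-2.63 ± 0.976, adjusted p = 0.132). Without input replicate 2 the estimates were -0.68 for Lyz2, -1.30 for Ctss and -2.23 for Tyrobp.

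A split by transcript length was made after the data were seen. Across the 27 genes, the log2 fold change of IP over input followed the length of the longest transcript with a Spearman coefficient of 0.82, and across all 15167 genes with a length it was 0.33. The median was -2.48 for the 12 genes with a longest transcript under 1.5 kb and -0.53 for the 8 genes of at least 2.5 kb. Without input replicates 1 and 2 the coefficient was 0.57 over 28 genes, the medians were -1.0 and -0.58, and the median of all 28 was -0.90. The genes share their libraries, so these coefficients are descriptions of the libraries.

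The same split was seen within the input group. In input replicate 2 the median log2 ratio to the median of input replicates 3 to 6 was 3.28 for the 12 short genes and 0.08 for the 10 long ones, with a Spearman coefficient of -0.72 over the 30 genes and -0.50 over 9783 genes of at least 10 CPM. Among short genes Tyrobp was 189 CPM there and 8 to 13.2 CPM in replicates 3 to 6, and among long ones Csf1r was 16.6 CPM there and 23.2 to 45.7 CPM in replicates 3 to 6. In ONP replicate 7, set against ONP replicates 1 to 6, the medians were 0.59 and -0.14 and the coefficient was -0.60, against -0.23 over all genes. In replicate 5 the coefficient over the 30 genes had the other sign, at 0.40 in ONH and 0.56 in ONP, against -0.01 and 0.01 over all genes. The mitochondrial share was 0.591% in ONP replicate 7, the highest of the nerve libraries, and its part was not tested.

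**Figure D5:**
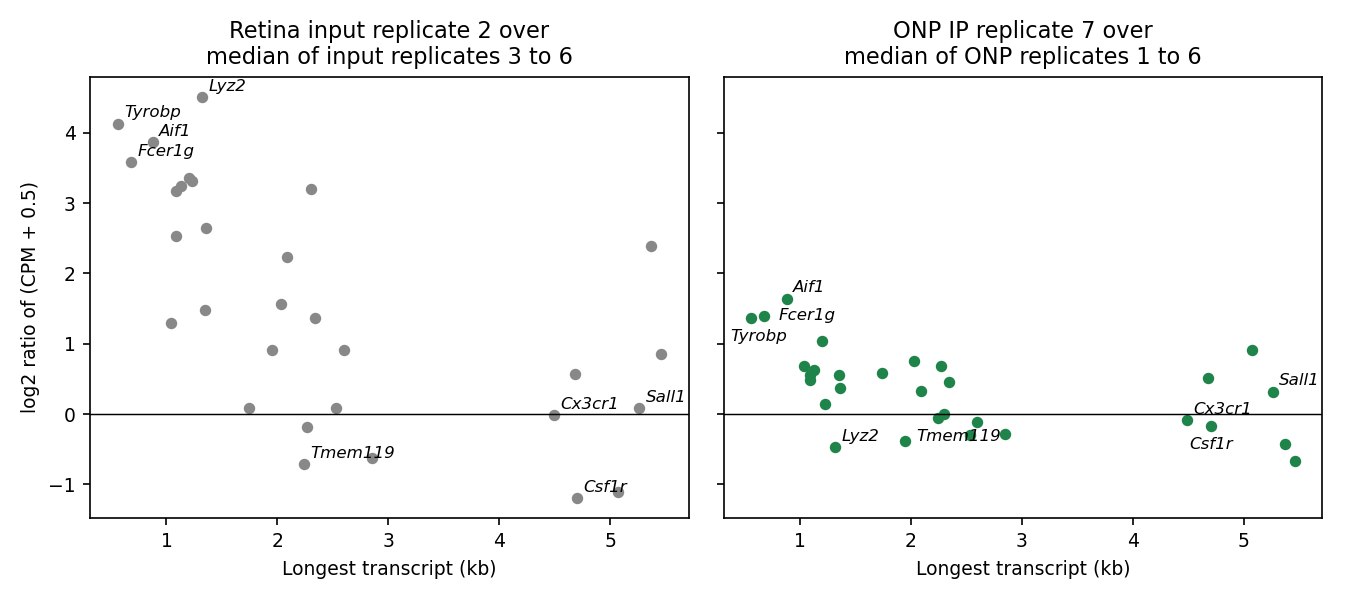
Log2 ratio of (CPM + 0.5) to the median of the named reference libraries against the length of the longest transcript (kb), for retina input replicate 2 (left) and ONP replicate 7 (right), 1 point per gene (30 genes). Short genes such as Tyrobp, Aif1 and Fcer1g are near the top of both panels, and the long genes Csf1r and Cx3cr1 are at or below 0. Exceptions on the left include the long genes Mrc1 (2.39), Laptm5 (0.91), Olfml3 (0.85) and Itgam (0.57). Those on the right include the long genes Ptprc (0.91), Itgam (0.52) and Sall1 (0.32) and the short gene Lyz2 (-0.47).

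Sall1 had a positive estimate in this comparison, where 25 of the 27 genes had a negative one. It was at 3.55 to 7.98 CPM in input and at 5.41 to 63.6 CPM in IP, with overlap through IP replicate 1, and its log2 fold change was 2.24 ± 0.58 (edgeR adjusted p = 0.067). DESeq2 called it higher (2.19, adjusted p = 0.00379), as did the fit on all 26 libraries (2.10, adjusted p = 0.00233) and the edgeR fits without IP replicate 1 (2.45, adjusted p = 0.0369) or IP replicate 5 (2.43, adjusted p = 0.0486). Gfap gave an estimate of 2.56 ± 0.713 (edgeR adjusted p = 0.0701) in the same comparison. Of the retina IP libraries highest for Sall1, replicate 4 was the lowest of 6 for 12 of the 30 genes and replicate 3 for 11, while replicate 2 was the highest for 6 and the lowest for none.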

How the data were processed

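Poly(A) RNA of 26 libraries was captured on oligo-dT beads and amplified with an ultra-low input cDNA kit, per the labels' protocols. The deposited values are estimated counts per gene, made with Salmon 1.6.0 on mm10, per the submitters' processing notes. The strand setting and annotation release are not given in the sources used here. Estimated counts were rounded to whole numbers, symbols (54409 of 54532 genes) and transcript lengths came from GENCODE, and low-count genes were removed with edgeR's filterByExpr (minimum count 10, minimum total 15). edgeR 4.0.16 (R 4.3.3) gave TMM-scaled CPM and quasi-likelihood tests with Benjamini-Hochberg adjustment over all genes tested and a threshold of 0.05. Regional comparisons were fitted on the 20 IP libraries with a batch term, and IP against input on the 12 retinal libraries. DESeq2 1.42.0, other scalings, filters, sample sets and left-out libraries were alternatives. The scripts were tested on simulated data.

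The genes and lists were chosen with earlier results of these data known. Every one of the 30 genes is accounted for, library values are given for P2ry12, Tmem119, Cx3cr1, Csf1r, Tyrobp, C1qa, Ctss, Lyz2 and Mrc1, for the 3 called genes with the largest change (mean of at least 10 CPM, libraries not overlapping) and for genes against the majority. From each other list up to 3 called genes of the majority direction and up to 2 of the other are named, largest first, where the higher of both group means reached 10 CPM. Other genes named were chosen after their values were seen. Totals of 11164619 to 27431026 counts limit precision for genes near 0. Some genes that the naming rule selects are not reported here.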

Additional observations from a re-analysis of the deposited data

Results flagged for a closer look

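A library was set apart where its gap to the nearest other library of its group exceeded the 95% critical value of Dixon's test. Of 120 gene and group combinations tested, 29 were set apart, where chance gives about 1 in 20 for independent, normally distributed values. The genes share their libraries, so the combinations are not independent and the count cannot be set against that rate.

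In retina input replicate 2, 15 genes stood above the other input libraries. These were Aif1 at 64.6 CPM, Tyrobp at 189 CPM, Trem2 at 41.3 CPM, C1qa at 37.8 CPM, C1qb at 395 CPM, C1qc at 290.1 CPM, Ctss at 400.2 CPM and Siglech at 34.1 CPM. The others were Olfml3 at 33.7 CPM, Gpr34 at 41.3 CPM, Cd68 at 67 CPM, Fcer1g at 109 CPM, Ly86 at 63.3 CPM, Lyz2 at 221 CPM and Mrc1 at 6.25 CPM. The share of mitochondrial counts was also highest in this library, and its part was not tested.

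In replicate 5 of the nerve groups, Aif1 (6.46 CPM), Tyrobp (7.02 CPM), C1qa (28.7 CPM) and Fcer1g (4.56 CPM) lay below the other ONH libraries, and Siglech (8.9 CPM) and Laptm5 (26.6 CPM) lay below the other ONP libraries. In ONP replicate 7, Aif1 (101 CPM), Tyrobp (139.7 CPM) and Fcer1g (113 CPM) lay above the rest.

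Single values set apart were Fcrls at 0 CPM in retina input replicate 1, Irf8 at 6.48 CPM in retina input replicate 6, and Mrc1 at 3.49 CPM in retina IP replicate 6, 5.05 CPM in ONH replicate 3 and 10.9 CPM in ONP replicate 1.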

How the results depend on the processing

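Against input, where edgeR called 0 of 15181 genes, the number called was 193 with no filter on low counts, 2072 with DESeq2, 2871 in a fit on all 26 libraries, 49 without input replicates 1 and 2, and 0 to 381 with each library left out in turn (381 without retina IP replicate 1). Of the 30 genes, the same settings called 2, 7, 12 and 1 lower and 0 to 1 with a library left out, and DESeq2 and the fit on all 26 libraries each called 1 higher (0 to 1 with a library left out). The estimate of Csf1r turned to -0.04 with RLE size factors, -0.04 with DESeq2, -0.02 in the fit on all 26 libraries and -0.32 without input replicates 1 and 2, and ranged from -0.20 to 0.23 with a library left out.

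Against ONH, where 5532 genes were called, 8465 were called with no batch term, 9454 with the replicate block in place of the batch term, 2069 with only the compared groups, 771 with batch 2 alone, and 2984 (without ONP replicate 7) to 6027 with a library left out. Of the 30 genes, batch 2 alone called 15 lower and the compared groups alone 18. Sall1 turned to 0.38 with only the compared groups and 0.53 in batch 2, and ranged from -0.94 to 0.33 with a library left out, and Mrc1 ranged from -3.36 to 1.12. Against ONP, where 5371 genes were called, 8851 were called with no batch term, 9699 with the replicate block in place of the batch term, 1700 with batch 2 alone, and 2155 (without ONP replicate 7) to 5741 with a library left out. Mrc1 turned to 0.79 in batch 2 and ranged from -3.52 to 0.64, and Sall1 from -1.21 to 0.07, with a library left out.

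For ONH against ONP, where 1223 genes were called, the number was 2041 with DESeq2, 2294 with only the compared groups, 2445 with batch 1 alone, 3806 with batch 1 and the replicate block, and 601 (without ONH replicate 1) to 1566 with a library left out. Of the 30 genes, 1 was lower with DESeq2, 1 with the block in place of the batch term, 1 with only the compared groups, 7 with batch 1 and the block (13.3% of all genes lower and 12.5% higher), 1 without replicate 5 of both groups, and 0 to 1 with a library left out. In each of the fits with only the compared groups, batch 1 alone and batch 1 with the block, 1 was higher. Mrc1 turned to 0.45 with the block in place of the batch term and to 0.58 with batch 1 and the block, where Aif1 turned to 0.12 and Irf8 to 0.16. With a library left out, Mrc1 ranged from -0.70 to 1.24, Fcrls from -0.65 to 0.04, Irf8 from -0.28 to 0.03 and Trem2 from -0.39 to 0.01. The cause of these shifts was not tested.

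The replicate numbers were not taken as pairs, since deviations of same-numbered libraries correlated at -0.10 to 0.23 between retina IP and input. Between ONH and ONP they correlated at 0.073 to 0.46. However, all 7 ONH libraries correlated best with their own number in ONP. Retina IP replicates 1, 2, 4, 5 and 6 did so with their own number in the input, and replicate 3 did not. These are hints from the data and not from the design. The block and the batch term could not be fitted together on the 20 libraries, and against input the block changed no call among the 30 genes (Tyrobp -2.52, adjusted p = 0.172). The fits with the block in place of the batch term and those without replicate 5 of both nerve groups were chosen after seeing the data. Counts near 0 limit what can be said of Mrc1, P2ry6 and Ptprc in the retina.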
